A study of Homo sapiens with 8 samples.

Results

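The 10 genes described here encode the cohesin ring, its loading and release factors, and CTCF, and they were chosen by name: SMC3, RAD21, STAG1, NIPBL, MAU2, WAPL, PDS5A, PDS5B, CDCA5 and CTCF, of 19122 autosomal protein-coding genes in the RefSeq table of GRCh38.p14. All peaks within each gene and 5 kb either side were collected from 8 ATAC-seq peak lists, an assay in which the transposase Tn5 inserts adapters into accessible DNA. Overlapping peaks of the 8 lists were joined into regions, of which 175 lay in these windows and 583075 on the 22 autosomes. The libraries came from hTERT RPE-1, human epithelial cells of the retinal pigment layer that telomerase made immortal. All 8 carried the genotype Plk1-/- EGFP-Plk1as, in which the only Plk1, a mitotic kinase, is a tagged form that the purine analog 3MB-PP1 can inhibit. The cells of both groups were held in prometaphase by the kinesin-5 inhibitor STLC at 5 µM for 16 h and collected by shake-off. They then spent 2 h, still in STLC, with 0.5% DMSO (4 libraries) or with 10 µM 3MB-PP1 (4 libraries), and over 95% were mitotic. The arrest is thus shared by both groups, and no interphase or parental cells were compared. The series describes the 4 libraries of a group as biological replicates. The comparison asks what loss of Plk1 activity does to accessibility in mitosis, here at the genes of a complex that Plk1 itself acts on.

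Cohesin is a ring of SMC proteins closed by a kleisin subunit that holds sister chromatids together and, in interphase, extrudes chromatin loops that stop at CTCF. NIPBL with MAU2 loads the ring, WAPL with PDS5A or PDS5B opens it, and CDCA5 (sororin) shields it from WAPL until mitosis. In prophase most cohesin leaves chromosome arms through WAPL, a step that Plk1 promotes by phosphorylating cohesin, while cohesin at centromeres is protected by shugoshin until separase cuts the kleisin. The values below concern the accessibility of these genes' own DNA, not the protein complex.

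Each of the 10 genes had a peak over its start in all 8 lists, except that at CDCA5 this held in 7, the peak of 3MB-PP1 replicate 4 lying just before the start. The start was taken from the RefSeq promoter table, which holds 9 of the 10. For RAD21, either annotated end was allowed, and the region found lies at the end at position 116874776. A region within 1 kb of the start and called in all 8 lists was also found for 9401 of 15101 protein-coding genes with a start (62.3%). Of 11 regions in the windows called in all 8 lists, 10 were these start regions, and the other lies inside SMC3. Sequences before 6 of the starts are shown here because their genes hold the highest and lowest ranks (CTCF, SMC3 and MAU2), have ranks or peak lengths that the results below turn on (WAPL, PDS5A and CDCA5), or both. They are RefSeq sequence of GRCh38.p14, written 5′ to 3′ on the gene's strand and ending at the base before the start. For CDCA5 the 181 bases that lie outside the neighbouring gene ZFPL1 are given, and for the others 250 bases. Capitals mark matches, on either strand, to CCAAT (NF-Y), TTTGAA (the CHR element of cell cycle genes), GGGCGG (the GC box), CCGGAA (ETS factors) and TTTCCCGC (E2F).
CTCF, chr16:67562276-67562525, plus strand: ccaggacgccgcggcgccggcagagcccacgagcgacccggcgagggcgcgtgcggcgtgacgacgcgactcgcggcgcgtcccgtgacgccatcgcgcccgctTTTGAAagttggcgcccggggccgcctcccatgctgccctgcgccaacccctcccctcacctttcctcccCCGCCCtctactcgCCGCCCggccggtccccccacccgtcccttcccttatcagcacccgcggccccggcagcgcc
SMC3, chr10:110567445-110567694, plus strand: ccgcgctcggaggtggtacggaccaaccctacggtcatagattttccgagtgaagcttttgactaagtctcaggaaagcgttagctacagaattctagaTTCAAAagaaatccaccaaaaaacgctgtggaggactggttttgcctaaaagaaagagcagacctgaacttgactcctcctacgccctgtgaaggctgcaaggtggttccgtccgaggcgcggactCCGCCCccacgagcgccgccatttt
WAPL, chr10:86521793-86522042, minus strand: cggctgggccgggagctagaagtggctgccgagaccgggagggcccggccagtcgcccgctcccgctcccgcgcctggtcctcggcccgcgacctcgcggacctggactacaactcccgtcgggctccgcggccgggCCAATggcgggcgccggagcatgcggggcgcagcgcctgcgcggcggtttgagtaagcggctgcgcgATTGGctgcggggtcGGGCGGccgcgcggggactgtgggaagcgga
PDS5A, chr4:39977912-39978161, minus strand: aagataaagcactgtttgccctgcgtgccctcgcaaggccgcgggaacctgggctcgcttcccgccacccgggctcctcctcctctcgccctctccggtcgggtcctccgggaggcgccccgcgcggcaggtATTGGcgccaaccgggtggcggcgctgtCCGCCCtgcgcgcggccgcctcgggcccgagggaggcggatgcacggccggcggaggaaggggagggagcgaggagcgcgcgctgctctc
CDCA5, chr11:65084041-65084221, minus strand: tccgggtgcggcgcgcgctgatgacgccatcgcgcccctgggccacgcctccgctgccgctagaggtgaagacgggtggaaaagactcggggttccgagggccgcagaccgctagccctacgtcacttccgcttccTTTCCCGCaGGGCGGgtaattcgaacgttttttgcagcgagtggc
MAU2, chr19:19320579-19320828, plus strand: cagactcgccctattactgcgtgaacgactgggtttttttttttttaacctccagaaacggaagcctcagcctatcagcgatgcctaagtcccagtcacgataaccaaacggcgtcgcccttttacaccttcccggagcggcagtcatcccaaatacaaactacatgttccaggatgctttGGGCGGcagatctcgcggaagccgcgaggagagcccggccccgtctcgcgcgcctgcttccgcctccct

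A peak covered the whole printed stretch in 8 of 8 lists at CTCF, SMC3, WAPL and MAU2, in 7 at CDCA5 and in 6 at PDS5A. In the 300 bases around each start (250 before and 50 after), all 9 members with a promoter entry held a GC box, as did 45.0% of the 35116 promoters in the table. These promoters are not limited to protein-coding genes, whereas all members are protein-coding. Shares over protein-coding promoters alone are not given. CCAAT was found in 4 of 9 (STAG1, WAPL, PDS5A and PDS5B) and in 34.6% of all promoters. TTTGAA was found in 3 of 9 (SMC3, PDS5B and CTCF) against 15.2%, and CCGGAA in 3 of 9 (STAG1, NIPBL and CDCA5) against 17.2%. The E2F word TTTCCCGC was found at STAG1 and CDCA5, and in 1.63% of all promoters. The longer words used for NRF1 and YY1 were in none of the 9, and in 1.24% and 0.849% of promoters. CCCTC (both strands), a core word of the CTCF motif that can overlap a GC box or fall by chance in any GC-rich stretch, was in 8 of 9 and in 71.2% of promoters. CpG dinucleotides numbered 23 at SMC3 and 46 at CTCF, the lowest and highest of the 9, against a median of 14 over all promoters. These matches describe the letters only.

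**Figure D1:**
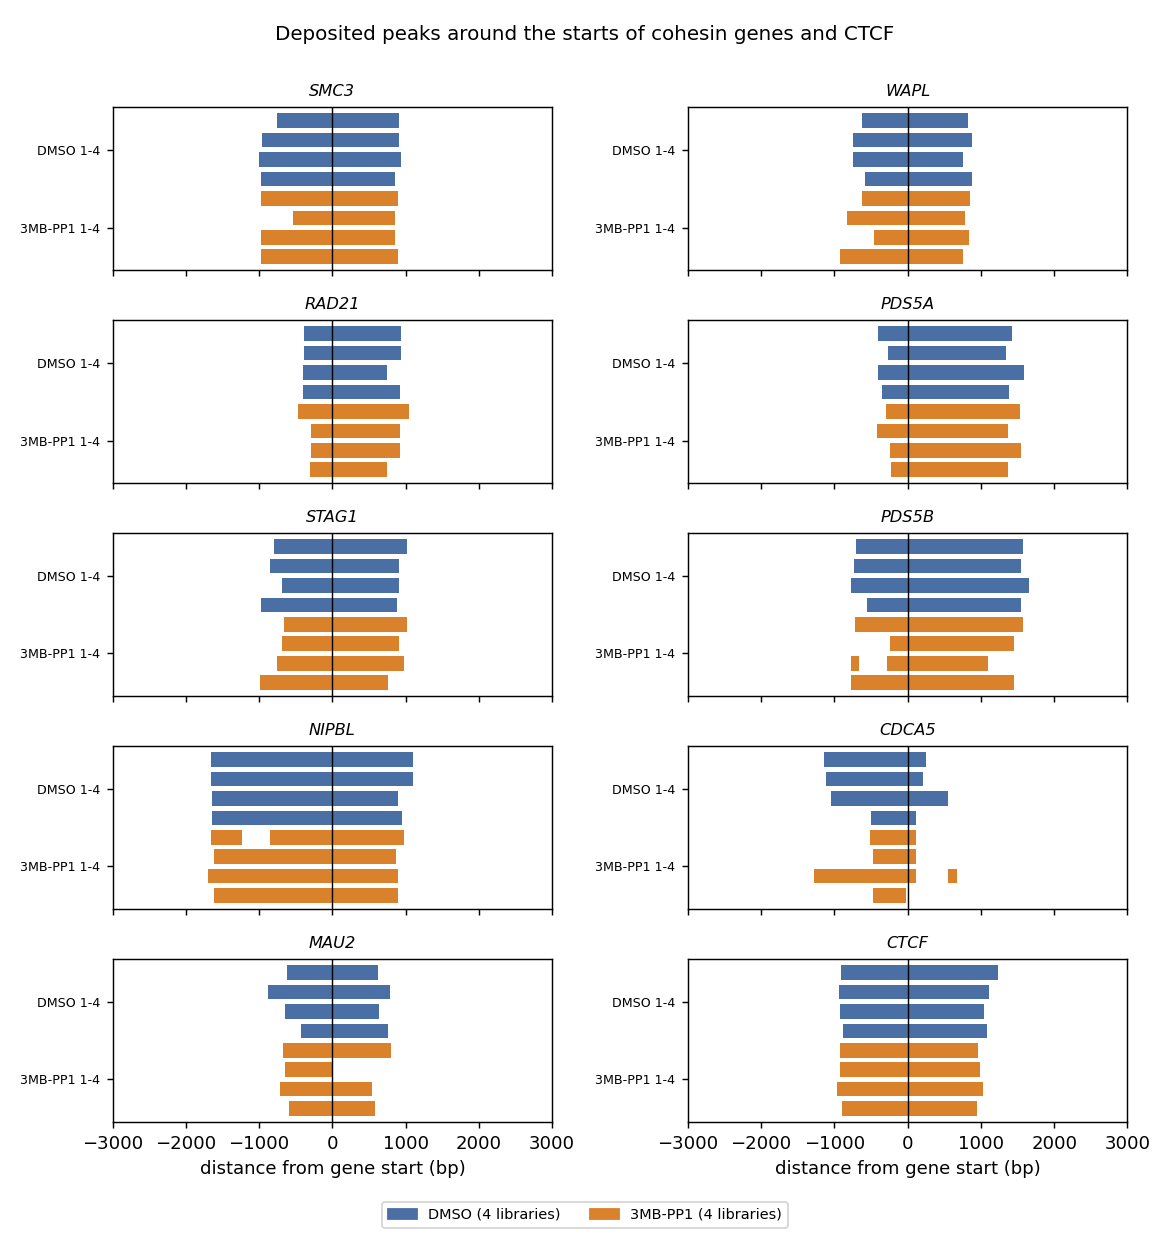
Deposited peaks within 3 kb of the start of each gene, 1 row per library (DMSO replicates 1 to 4 above 3MB-PP1 replicates 1 to 4), with distance from the start in bp, negative before it, and for RAD21 from the end named in the text. A bar over or beside the start is present in all 8 libraries of all 10 genes, long at NIPBL and variable at CDCA5.

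Start regions were compared by rank because the scaling of the pileup (fragment coverage) between libraries is not stated. The highest pileup of each region was ranked among the 36170 autosomal regions called in all 8 lists, so that every list ranked the same regions and 100 is the highest. The median of the 10 members was 88.3 to 91.3 in the DMSO libraries and 88.6 to 92.1 in the 3MB-PP1 libraries, against 81.7 to 83.0 and 81.3 to 82.9 for the 9401 protein-coding starts. Averaged over all 8 libraries, CTCF (97.8) and SMC3 (97.0) were highest, at places of 93.0 and 91.0 among protein-coding starts in percent. STAG1 (94.5) and RAD21 (94.4) followed, and do not differ beyond their spread. WAPL (89.3), PDS5A (88.0), NIPBL (87.3), PDS5B (86.9) and CDCA5 (82.2) lay lower with overlapping ranges. MAU2 (46.3) lay far below the other 9 in every library, at a place of 10.7, while its partner in the loader, NIPBL, was at 62.7. By the authors' own fold enrichment over background, CTCF ranked lower, with mean percentiles of 81.8 (DMSO) and 83.2 (3MB-PP1). RAD21 had 97.4 and 97.1, and SMC3 90.6 and 91.6. In fold itself, RAD21 was the steepest of the starts with 5.14 to 6.72, and MAU2 the shallowest with 2.46 to 3.17. MAU2 was also the only member whose start peak stayed below -log10 q 5 in all 8 lists, a level the other 9 passed in all 8.

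**Figure D2:**
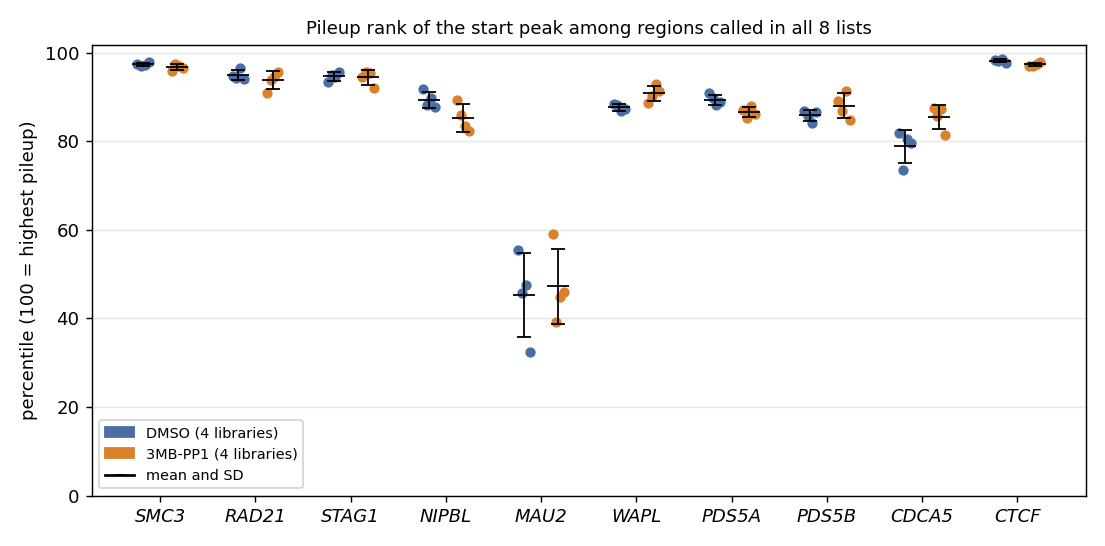
Percentile of the start region's highest pileup among regions called in all 8 lists, for each gene, with 1 point per library and bars for the mean and SD of 4 libraries. CTCF and SMC3 lie above 95 in all libraries and MAU2 between 32.4 and 59.1. The groups do not overlap at WAPL and PDS5A.

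Between treatments, the rank of the start region was higher with 3MB-PP1 at WAPL and lower at PDS5A, which act together in opening the ring, and the groups did not overlap at either. No difference passed adjustment over all regions, which would have needed most regions to have the smallest possible p. The 2 of 10 members with groups that do not overlap compare with 8.03% of all 36170 regions (5.05% lower and 2.97% higher with 3MB-PP1). At WAPL the DMSO libraries had percentiles of 88.4, 88.3, 86.7 and 87.4 and the 3MB-PP1 libraries 88.7, 90.3, 92.9 and 91.4. Every 3MB-PP1 library was above every DMSO library, by a narrow margin in replicate 1. The difference was 3.12 points (exact two-sided permutation over 70 assignments, p = 0.0286, the smallest possible, adjusted p = 0.356 over all regions), and 3.22 in odd-numbered and 3.02 in even-numbered replicates. At PDS5A the DMSO libraries had 90.8, 89.7, 88.2 and 88.8 and the 3MB-PP1 libraries 87.0, 85.2, 87.9 and 86.1. Here every 3MB-PP1 library was below every DMSO library. The difference was -2.82 points (p = 0.0286 by the same exact permutation, two-sided, adjusted p = 0.356), and -2.03 in odd-numbered and -3.60 in even-numbered replicates. Ranked by fold enrichment, WAPL differed by 1.51 points with overlapping groups, and ranked within each library's whole list, PDS5A differed by -0.352 with overlapping groups.

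CDCA5, which protects the ring from WAPL, had DMSO percentiles of 81.9, 73.5, 80.4 and 79.6 and 3MB-PP1 percentiles of 87.4, 85.8, 87.3 and 81.5. The 3MB-PP1 library was higher in 4 of 4 same-numbered pairs (4 of 10 members and 30.7% of all regions had 4 of 4 pairs in 1 direction), but replicate 4 lay just below the highest DMSO library, so the groups overlapped. The difference of 6.64 points had a p of 0.0571 by the exact two-sided permutation test (adjusted p = 0.420). With peaks of at least 300 bp or at -log10 q of 5 or more, the CDCA5 groups did not overlap (10.7 and 18.2 points). The share of all regions at these settings is not given, so this is not read as a result. At NIPBL, the HEAT-repeat subunit of the loader, the DMSO libraries had 91.8, 88.2, 89.7 and 87.8 and the 3MB-PP1 libraries 89.4, 86.0, 83.4 and 82.3. The groups overlapped, with the 3MB-PP1 library lower in 4 of 4 pairs and a difference of -4.13 points (two-sided exact permutation, p = 0.0857 and adjusted p = 0.459). By fold enrichment, the NIPBL difference had the opposite sign, 5.54 points. CTCF, the insulator protein at which cohesin stops, had 98.4, 98.2, 98.5 and 97.7 with DMSO and 97.1, 97.0, 97.4 and 97.9 with 3MB-PP1, and 1 3MB-PP1 library exceeded the lowest DMSO library (-0.824 points, p = 0.0571 by the exact two-sided test, adjusted p = 0.420). SMC3, an ATPase arm of the ring, RAD21, the kleisin, STAG1, a subunit that binds RAD21 and CTCF, PDS5B and MAU2 had overlapping groups, with differences from -1.19 (RAD21) to 2.21 points (PDS5B).

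No difference in start region length passed the test at any of the 10 genes. The length, the bp covered by peaks in the region, had a median over the 10 members of 1712.5 to 1777 bp with DMSO and 1608.5 to 1753.5 bp with 3MB-PP1. Over all 36170 regions called in all 8 lists, the medians were 981 to 1202 bp and 792.5 to 899 bp, so typical regions were shorter with 3MB-PP1 by a median of 0.27 on the log2 scale. Protein-coding starts were shorter by a median of 0.17 and the members by 0.085. On the lengths as deposited, 9 of 10 members had a negative difference, as did 88.1% of protein-coding starts and 80.2% of all regions. None of the 10 passed limma's adjusted p of 0.05, whereas 0.274% of all regions did, all of them shorter. With each library centred on its median over all these regions, 9 of 10 members had a positive difference. So did 76.5% of protein-coding starts and 57.6% of all regions. The direction thus depends on the scale at SMC3, RAD21, STAG1, NIPBL, MAU2, PDS5A, PDS5B and CTCF. On the centred scale none of the 10 and 0% of all regions passed limma's adjusted p. At an unadjusted limma p under 0.05 stood 5 members (STAG1, NIPBL, WAPL, PDS5A and CTCF, all longer), 23.2% of protein-coding starts and 15.6% of all regions. Counting only longer ones, the shares were 21.4% of protein-coding starts and 10.6% of all regions.

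**Figure D3:**
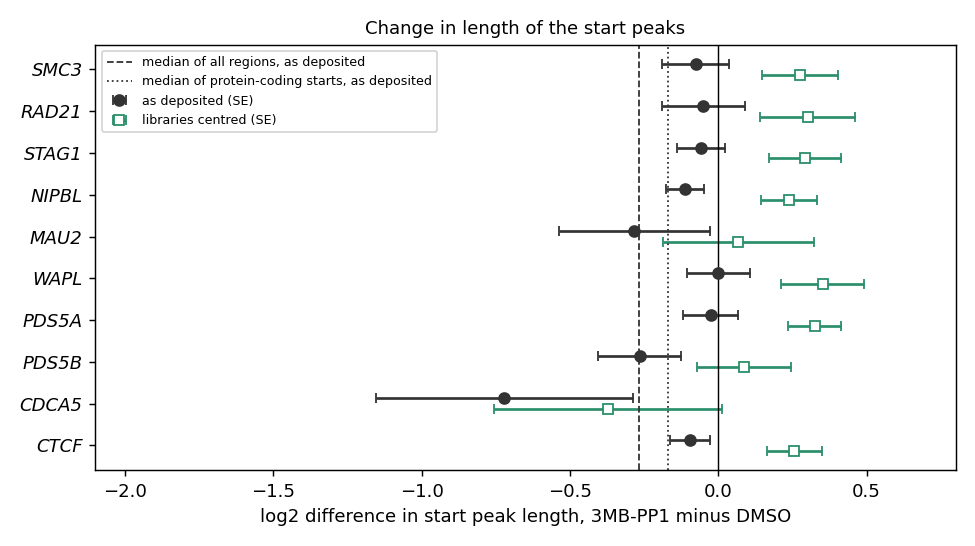
log2 difference in start region length, 3MB-PP1 minus DMSO, for each gene, with lengths as deposited (filled points) and with libraries centred (open squares), and bars for the SE from limma over 4 and 4 libraries. The dashed line at -0.27 is the median of all regions as deposited and the dotted line at -0.17 that of protein-coding starts, and most filled points lie between it and 0.

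NIPBL had the longest start region of the 10, on chr5:36875075-36877871, which reaches 1694 bp before the start over the divergent RNA gene NIPBL-DT. Its lengths were 2751, 2758, 2545 and 2599 bp with DMSO and 2272, 2481, 2594 and 2511 bp with 3MB-PP1. Only the 3MB-PP1 library of replicate 3 reached into the DMSO range, and in replicate 1 the region was split in 2 peaks. The centred log2 difference was 0.24 ± 0.093 (SE, limma adjusted p = 0.263) and that of the deposited lengths was -0.11 ± 0.063 (SE, limma adjusted p = 0.355). CDCA5 shares its start region, chr11:65083363-65085313, with ZFPL1, whose start lies in it, so its peak cannot be given to either gene alone. Its lengths were 1390, 1317, 1600 and 612 bp with DMSO and 634, 575, 1512 and 440 bp with 3MB-PP1. In DMSO replicate 4 and in 3MB-PP1 replicates 1, 2 and 4 the peak began 466 to 513 bp before the start, whereas in the other 4 libraries it began 1046 to 1273 bp before it. In 3MB-PP1 replicate 4 it ended 28 bp before the CDCA5 start. The difference in deposited length was -0.72 ± 0.43 (SE, log2, limma adjusted p = 0.383), and the groups overlapped. PDS5B had 2277, 2289, 2439 and 2107 bp with DMSO on chr13:32585674-32588113 and 2283, 1698, 1490 and 2226 bp with 3MB-PP1. The shorter values belonged to 3MB-PP1 replicates 2 and 3, in which the peak began 245 and 278 bp before the start, apart from a separate peak of 116 bp in replicate 3 (log2 difference -0.26 ± 0.14, SE, limma adjusted p = 0.330 as deposited). CTCF was even in length, with 1967 to 2149 bp on chr16:67561565-67563766 with DMSO and 1841 to 1991 bp with 3MB-PP1. PDS5A, on chr4:39976328-39978323, extended further into the gene than before it in every library and had 1608 to 1990 and 1606 to 1831 bp.

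At the other 5 starts the length ranges of the groups overlapped. SMC3, on chr10:110566689-110568626 with the RNA gene LOC105378483, had 1659 to 1938 bp with DMSO and 1395 to 1872 bp with 3MB-PP1. RAD21, on chr8:116873732-116875252, had 1149 to 1329 and 1045 to 1521 bp, in a region that also overlaps the antisense gene RAD21-AS1 and the microRNA gene MIR3610. STAG1, on chr3:136751363-136753360 with the divergent gene STAG1-DT, had 1607 to 1860 and 1607 to 1742 bp. WAPL, on chr10:86520912-86522715 with WAPL-DT, had 1457 to 1619 and 1303 to 1673 bp. MAU2, on chr19:19319949-19321635, shares its region with the start of SUGP1 and had 1179 to 1662 and 644 to 1476 bp. In 3MB-PP1 replicate 2, the shortest of these, the MAU2 peak ended 3 bp after the start. All groups overlapped in deposited length, where 11.3% of all regions had groups that did not (10.9% lower and 0.379% higher with 3MB-PP1).

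Over the whole windows, no member separated the groups. The length covered by peaks in a gene and 5 kb either side ranged from 1045 bp (RAD21) to 5569 bp (PDS5A), which is 0.414% (STAG1) to 13.7% (CDCA5) of the window. Groups that do not overlap were found at 0 of 10 members and at 7.47% of all autosomal protein-coding genes (6.42% lower and 1.06% higher with 3MB-PP1). The smallest exact two-sided permutation p among the 10 was 0.171, at PDS5B. All 4 same-numbered pairs went in 1 direction at STAG1 (higher) and CDCA5 (lower), 2 of 10 members, and at 26.6% of all genes. Differences were positive at 6 members and negative at 4, whereas 67.4% of all genes had a negative one. The median was -196 bp over all genes and 181 bp over the members. Counting only peaks at -log10 q of at least 5, the positive differences turned negative at SMC3, STAG1, PDS5A, PDS5B and CTCF. WAPL stayed positive, by 6 bp. The share of all genes at this setting is not given. Among the release factors, PDS5A had 2517, 2189, 2201 and 4829 bp with DMSO and 3505, 4248, 5569 and 2510 bp with 3MB-PP1. Replicate 4 had the longest of the DMSO values and the shortest of the 3MB-PP1 values. WAPL had 2115, 4862, 2699 and 5553 bp with DMSO and 4158, 4680, 4543 and 4842 bp with 3MB-PP1, where the odd-numbered DMSO libraries alone were low. Replicates 1 and 3 gave a WAPL difference of 1943.5 bp, replicates 2 and 4 one of -446.5 bp, and the sign thus changed between them. The same was true of SMC3 (339.5 and -153.5 bp), PDS5A (2178 and -130 bp) and CTCF (923.5 and -384.5 bp).

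**Figure D4:**
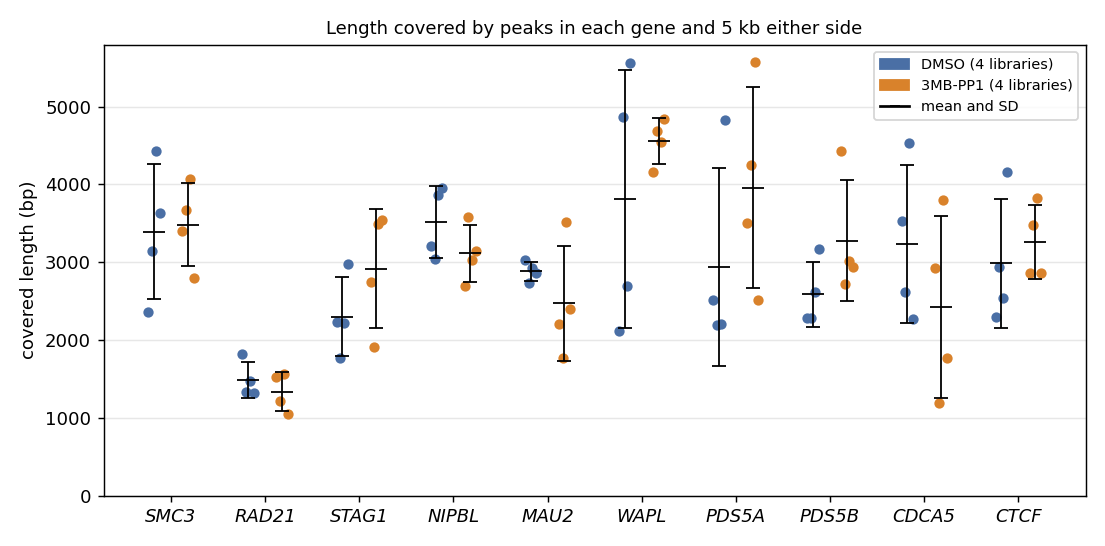
Length covered by peaks in each gene and 5 kb either side, in bp, with 1 point per library and bars for the mean and SD of 4 libraries. The groups overlap at all 10 genes, and the DMSO libraries spread most at WAPL (2115 to 5553 bp).

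The number of peaks in a window ran from 1 to 13. Groups did not overlap at 0 of 10 members and at 2.68% of all genes (0.167% lower and 2.51% higher with 3MB-PP1), and the smallest exact two-sided permutation p among members was 0.0857, at PDS5B. PDS5B had 1, 1, 2 and 4 peaks with DMSO and 8, 3, 6 and 4 with 3MB-PP1, so that DMSO replicate 4 alone reached the 3MB-PP1 range. Without that library the groups did not overlap at PDS5B (difference 3.92 peaks) or PDS5A (5.25 peaks). Each library was left out in turn, and the share of all genes without this one is not given. The separation is therefore not read as a result. WAPL had 3, 10, 6 and 11 peaks with DMSO and 8, 11, 13 and 13 with 3MB-PP1, more in 4 of 4 pairs but with overlapping groups, and 1 of 10 members and 8.29% of all genes had 4 pairs in 1 direction. RAD21 had 1 or 2 peaks in every library. Differences were positive at 8 of 10 members, and at 65.9% of all genes.

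Regions were shared between lists about as often as elsewhere on the autosomes. Of the 175 regions, 98 (56.0%) were called in 1 list, against 51.8% of all autosomal regions, and 11 (6.29%) in all 8, against 6.20%. Of the 98, 34 were in a DMSO list and 64 in a 3MB-PP1 list, and of all autosomal regions in 1 list 113294 and 188774. Of the 165 regions that are not start regions, 67 were called in 2 or more lists. The 165 regions together had a median percentile of 22.7 by pileup in their own lists, and a peak reaching -log10 q 5 was found in 2 of them. Their medians by gene ran from 18.3 (STAG1) to 32.4 (SMC3) at 8 of the genes, but were 78.8 over the 13 at MAU2 and 84.2 over the 6 at CDCA5. Despite these pileup percentiles, the fold enrichments there were 2.08 to 2.90 at MAU2 and 2.03 to 2.96 at CDCA5. The -log10 q was at most 2.24 and 2.99. STAG1, the longest gene at 416 kb, had 25 regions, 5.87 per 100 kb, of which 19 were in 1 list. WAPL had 35 regions, 36.3 per 100 kb, and SMC3 24.8. Both lie on chromosome 10, where the median protein-coding window had 31.7 regions per 100 kb against 23.6 over all autosomes. The long arm of this chromosome is known to be gained in part in RPE-1. The part of copy number in these values, and in the pileup ranks of SMC3 and WAPL, was not tested.

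**Figure D5:**
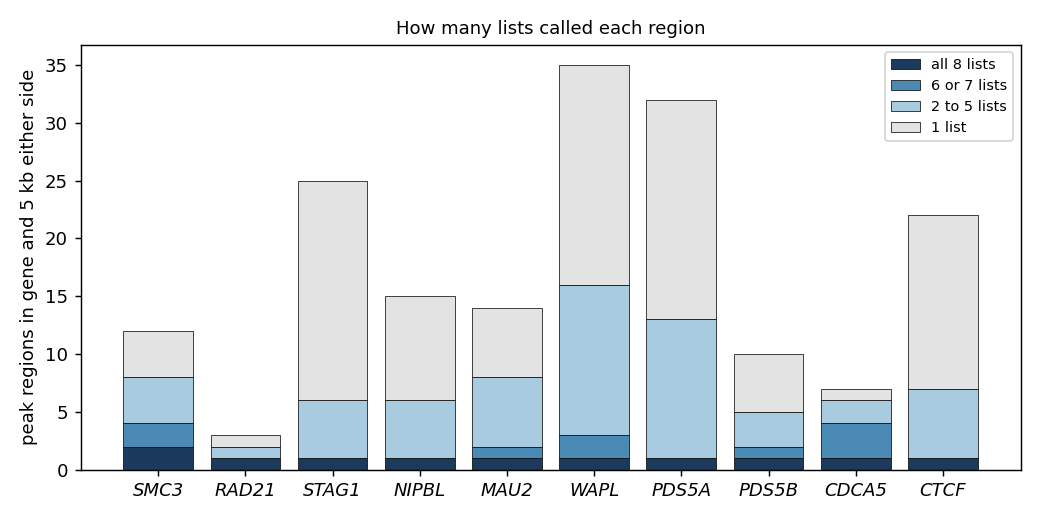
Number of peak regions in each gene and 5 kb either side, stacked by how many of the 8 lists called them. Each gene has 1 region in all 8 lists, SMC3 has 2, and most other regions were called in 1 list or in 2 to 5.

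The second SMC3 region of all 8 lists, on chr10:110574468-110575033, lies in the gene 7.06 kb after its start. Its peaks were 329, 342, 381 and 332 bp long with DMSO and 304, 252, 477 and 308 bp with 3MB-PP1. Its pileup percentiles were 19.7, 33.4, 46.5 and 24.3 with DMSO and 47.0, 41.7, 47.2 and 13.0 with 3MB-PP1. The groups overlapped in both (rank difference 6.27 points, exact two-sided permutation p = 0.514), and the start region of the same gene ranked above it in every library. Regions in 6 or 7 lists numbered 9 and were singled out after their values were seen. They include chr10:110609421-110611051, 7 lists, beyond the end of SMC3, chr19:19333362-19334991, 7 lists, in MAU2, chr10:86454417-86455288, 7 lists, in WAPL, and chr11:65066088-65068592, 7 lists, in CDCA5. The annotation used gives gene spans only, so exons and introns were not told apart.

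Every 3MB-PP1 list but no DMSO list held 1 region of these windows, and 0 regions showed the reverse, against 0.149% and 0.12% of all autosomal regions. It lies in PDS5B on chr13:32715949-32716563, 130 kb after the start. Its peaks were 587, 477, 579 and 166 bp long in 3MB-PP1 replicates 1 to 4, with fold enrichments of 3.17, 2.85, 3.26 and 2.58. In their own lists these had pileup percentiles between 2.26 (replicate 4) and 62.0 (replicate 3), so the call in replicate 4 was among the weakest of its list. A DMSO library without a call may still hold signal there, below the cut-off of its list. With peaks of at least 300 bp, with lists cut to equal length, or at -log10 q of at least 5, the count was 0. A further PDS5B region, chr13:32721162-32721951, was called in 4 3MB-PP1 and 2 DMSO lists.

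Of 13 other genes of the pathway, 9 had a peak within 1 kb of the start in all 8 lists: SMC1A, STAG2, ESCO1, ESCO2, ESPL1, PTTG1, SGO1, STAG3 and RAD21L1. The other 4 were HDAC8 (7 lists), SMC1B (7), CTCFL (6) and REC8 (3). The last 3 are known for germline expression, but the meiotic genes STAG3 and RAD21L1 had a peak in all 8. In covered length, 2 of the 13 had groups that do not overlap, both lower with 3MB-PP1, as had 7.47% of all autosomal protein-coding genes in either direction and 6.42% lower, and with 13 genes this count is not read as a result about them. SGO1, the shugoshin that protects centromeric cohesin, had 1145, 1700, 1339 and 1734 bp with DMSO and 977, 1057, 1117 and 1124 bp with 3MB-PP1. RAD21L1, a meiotic kleisin, had 2421, 2344, 2569 and 2343 bp with DMSO and 1692, 1907, 1952 and 2050 bp with 3MB-PP1. The lower length held in every 3MB-PP1 library of both (differences -411 and -519 bp, exact two-sided permutation p = 0.0286 each, smallest adjusted p over all genes 0.382). ESPL1, separase, overlapped between groups (2000 to 2712 bp with DMSO and 1128 to 2014 bp with 3MB-PP1). SMC1A and STAG2, the X-linked ring subunits, had 1140 to 1602 and 1237 to 1599 bp, and 2545 to 2674 and 2315 to 2813 bp.

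The 8 lists held 150577 to 252752 peaks on the autosomes and X, and read depth is unknown because the lists give no totals. No pair of lists shared more than 0.0339% of peak positions. Of the peaks, chromosome X held 0.868% to 0.933% with an odd replicate number and 0.595% to 0.694% with an even one, whichever the treatment, which is why odd-numbered and even-numbered values are given. Of 7 retinal pigment epithelium genes, 3 had a start peak in all 8 lists (MITF, OTX2 and PMEL) and RPE65 in none. KRT8, KRT18 and VIM had one in all 8, but so did the blood genes CD3E and SPI1, so a start peak does not tell cell types apart here.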

How the data were processed

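ATAC-seq had been performed on 50000 cells per reaction, per the labels' protocols. MACS2 and hg38 are named in the submitters' processing notes. The aligner, read filters, any Tn5 shift and the calling settings are not given in the sources used here, and peak number and width may depend on them. Each library has its own deposited list, without header, whose columns were taken as MACS2 orders them: position, length in bp, pileup, -log10 p, fold and -log10 q. The deposited pileup is a signal (coverage) with no stated scaling. The deposited fold is a ratio of pileup to background, and the deposited -log10 p-value and -log10 q-value belong to each peak within its library (largest q 0.1). These are the authors' values and were used to describe, rank or filter within a list.

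Libraries were grouped by title. Regions were the union of the 8 lists, merged at 1 bp of overlap or more. Single values were tested by exact two-sided permutation of group means (70 assignments, smallest p 0.0286), with Benjamini-Hochberg adjustment over all autosomal genes or regions. In such tests no adjusted p reached 0.05 for any gene or region. Reaching it would have needed most genes or regions to have the smallest p at once. That p was found at 1429 of 19122 genes in covered length, 512 in peak count and 2903 of 36170 regions in rank. Failing this adjustment therefore does not show that a difference is absent. Region length was tested with limma 3.58.1 on log2 bp, each library centred on its median. The members, lists, named-gene rule (all 10 members, their start regions, regions of all 8 lists and regions of 1 group only) and tests were chosen with earlier results of these data known. Scripts were tested on simulated data. R 4.3.3 and Python 3.11.15 were used, with scipy 1.17.1, pandas 2.3.3, numpy 2.4.6 and matplotlib 3.10.9.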

Additional observations from a re-analysis of the deposited data

Results flagged for a closer look

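Dixon's test at the 95% level was applied to the highest and lowest of 4 libraries, comparing the distance to the next library with the whole range. Of 80 groups tested (10 genes, 4 measures and 2 treatments), 5 exceeded it, and chance gives about 1 in 20. Covered length in the PDS5A window was 4829 bp in DMSO replicate 4 and 2189 to 2517 bp in the other DMSO libraries. The SMC3 start region was 1395 bp in 3MB-PP1 replicate 2 and 1825 to 1872 bp in the others of its group. The RAD21 start region was 1149 bp in DMSO replicate 3 and 1323 to 1329 bp in the others. RAD21 had 2 peaks in 3MB-PP1 replicate 3 and 1 in each of the others, and NIPBL had 6 peaks in DMSO replicate 3 and 3 in each of the others, both on a scale of few whole peaks.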

How the results depend on the processing

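The cause was not tested for any change below unless the alternative itself shows it. Counts of members under the alternatives have no share over all genes or regions beside them unless one is printed. They are therefore not read as results about the members. Groups also separate more easily when a library is left out. No member was past limma's adjusted p of 0.05 in start region length under any alternative run. Without centring, the length difference changed sign at SMC3 (-0.077), RAD21 (-0.050), STAG1 (-0.058), NIPBL (-0.11), MAU2 (-0.28), PDS5A (-0.026), PDS5B (-0.26) and CTCF (-0.094), since centring adds the whole-list shift. It was -0.10 at PDS5B at -log10 q of at least 5, where MAU2 has no peak, and ranged from -0.073 to 0.33 at MAU2 leaving out a library.

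Members whose rank groups do not overlap numbered 2, and 1 by rank in the library's own list, 1 by fold enrichment, 3 at -log10 q of 5 or more and 3 with peaks of at least 300 bp (CDCA5 added in both, by 18.2 and 10.7 points), and 2 to 5 leaving out a library, with 5 without 3MB-PP1 replicate 4 (PDS5B, CDCA5 and CTCF added). CDCA5 was also added without DMSO replicate 1, CTCF without DMSO replicate 4, NIPBL without 3MB-PP1 replicate 1 and SMC3 without 3MB-PP1 replicate 2. Signs changed by fold enrichment at SMC3 (0.955), STAG1 (2.41), NIPBL (5.54), MAU2 (-8.05) and CTCF (1.42), and by own list at STAG1 (0.0949). Leaving out a library, STAG1 ranged from -0.589 to 0.493 and MAU2 from -2.50 to 4.75.

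Covered length separated 0 members, 1 (MAU2) with lists of equal length, and 0 to 1 leaving out a library (PDS5B without DMSO replicate 4, MAU2 without 3MB-PP1 replicate 3). The difference turned negative at -log10 q of at least 5 at SMC3 (-179.8 bp), STAG1 (-136.5), PDS5A (-35), PDS5B (-382.8) and CTCF (-129). It also turned with lists of equal length at SMC3 (-118) and PDS5A (-32.2), with peaks of at least 300 bp at SMC3 (-173.5), with 10 kb either side at SMC3 (-63) and with the gene alone at RAD21 (24.5) and CDCA5 (176.8). SMC3 ranged from -250.5 to 439.5 bp leaving out a library.

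Peak counts separated 0 members, and 0 to 2 leaving out a library. The count difference turned at -log10 q of at least 5 at SMC3 and STAG1 (-0.25 each), with equal lists at MAU2 (-1.25) and PDS5A (-0.25), and with peaks of at least 300 bp at SMC3 (-0.25), NIPBL (-0.5) and MAU2 (-0.5). Leaving out a library gave -0.167 to 1.5 at SMC3, -0.583 to 1.08 at MAU2 and -1 to 0.333 at CDCA5.

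The region called only with 3MB-PP1 (1) became 0 with equal lists, at -log10 q of 5 or more, with peaks of at least 300 bp and when peaks had to cover 50% of a region, and 4 regions met at least 3 of 4 lists against 0. With the replicate number as a block, members with all 4 pairs in 1 direction numbered 2 in covered length (26.6% of all genes), 1 in peak count (8.29%) and 4 in rank (30.7% of all regions), with a smallest possible p of 0.125, and 0 passed in length. The main tests did not pair the libraries by number. Deviations of same-numbered libraries correlated only weakly, above 0.1 in 2 of 4 pairs (0.0167 to 0.126). However, 7 of 8 libraries correlated best with their own number, and the chromosome X share also followed odd and even numbers. These values therefore do not show that same-numbered libraries are unrelated.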
